A study of Mus musculus with 4 samples.

Results

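Brain tissue of young tumor-bearing mice was compared with that of young naive mice across the 12875 protein-coding genes that reached 1 FPKM in either library, out of 21995 protein-coding genes and 54532 genes listed in all. FPKM counts sequenced fragments relative to a gene's length and to the depth of the library. The mice were C57BL/6, 8 to 12 weeks of age in both young groups, and carried no allele or drug treatment that the labels name. The tumor-bearing mice had received 50000 GL261 cells intracranially, a C57BL/6 glioma line that grows in immune-competent hosts. Their brain tissue outside the tumor was taken on day 21, and naive mice of the same age were the controls. The naive samples also carry the cell line tag GL261, and their group tag was followed. Old naive and old tumor-bearing mice, given as 8 to 90 weeks of age, are used only for values set side by side. There was 1 library for each group, and how many mice went into it is not stated. No difference therefore has a replicate check, no test between groups was made, and every statement compares libraries. Where a pair of values is given, the naive library comes first and the tumor-bearing one second. Intervals after a fold are exact 95% limits of the ratio of recovered reads and express counting error alone.

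Interferons are secreted signals that bind receptors on nearly every cell, activate JAK kinases and STAT transcription factors, and switch on a large set of antiviral and antigen-presentation genes. Many of those genes carry a short DNA element near their start to which STAT and IRF proteins bind. In brain, microglia and astrocytes both respond to interferons, and neurons express little MHC at rest. Hypothalamic neuropeptides and the enzymes of monoamine neurons are made by small groups of neurons at fixed places, so their level in a piece of brain also reflects which places the piece holds.

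The young libraries were close in depth, with 23267926 fragments in genes for the naive and 21893363 for the tumor-bearing one. Mitochondrially encoded genes took 5.51% and 4.72% of them. Both held brain tissue by its markers. All 19 pan-neuronal, 20 astrocyte, 20 oligodendrocyte, 18 microglial and 19 endothelial genes listed for this check passed the floor of 1 FPKM in either library. In the naive library itself 17 of the 18 microglial genes reached 1 FPKM, and all of the others. Of the protein-coding markers of lymphocytes and neutrophils few passed the floor, 4 of 17 for T cells, 0 of 10 for B and plasma cells and 3 of 14 for neutrophils. More did among infiltrating and border macrophage genes (12 of 23), dendritic cell genes (6 of 13) and pan-leukocyte genes (15 of 18). Antigen receptor constant genes have a gene type of their own and were not among the genes compared. Of these, Igkc, an antibody light chain, was at 1.56 and 13.3 FPKM (8.54-fold, 5.15 to 15.1). Ighm, an antibody heavy chain, was at 9.91 and 16.7 FPKM (1.68-fold, 1.48 to 1.92), and Trac, a T cell receptor chain, had 14 and 43 reads.

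The libraries were similar for most genes and differed mainly by genes that were higher with tumor. The median log2 ratio, tumor-bearing over naive and taken on FPKM + 0.1, was -0.02, and 89.5% of genes lay within 0.5 of 0. Of the 12875 genes, 298 (2.31%) were at least 2-fold higher on that scale and 45 (0.35%) at least 2-fold lower. In bulk tissue more or fewer cells of a type and more or less RNA per cell cannot be told apart. At 4-fold the counts were 97 and 10, and at 8-fold 45 and 2. Counting error alone left the interval of the fold above 1 for 292 of the 298 higher genes and below 1 for 41 of the 45 lower ones. A gene near 0 in naive tissue enters only if it is higher with tumor. Of the higher genes 201 were below 1 FPKM in the naive library. Among the 12348 genes at 1 FPKM or more there, 97 (0.786%) were higher and 45 (0.364%) lower. Gene lists are therefore also read over the members that naive tissue already expressed, where the background median was -0.03. That set has the reverse limit, since 27 of the 45 lower genes were below 1 FPKM in the tumor-bearing library. With 1 FPKM in both libraries 97 genes were higher and 18 lower. Just inside the floor lay Nmbr, at 1.0 and 0.573 FPKM, and just outside it Slc5a1, at 0.894 and 0.999 FPKM.

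**Figure D1:**
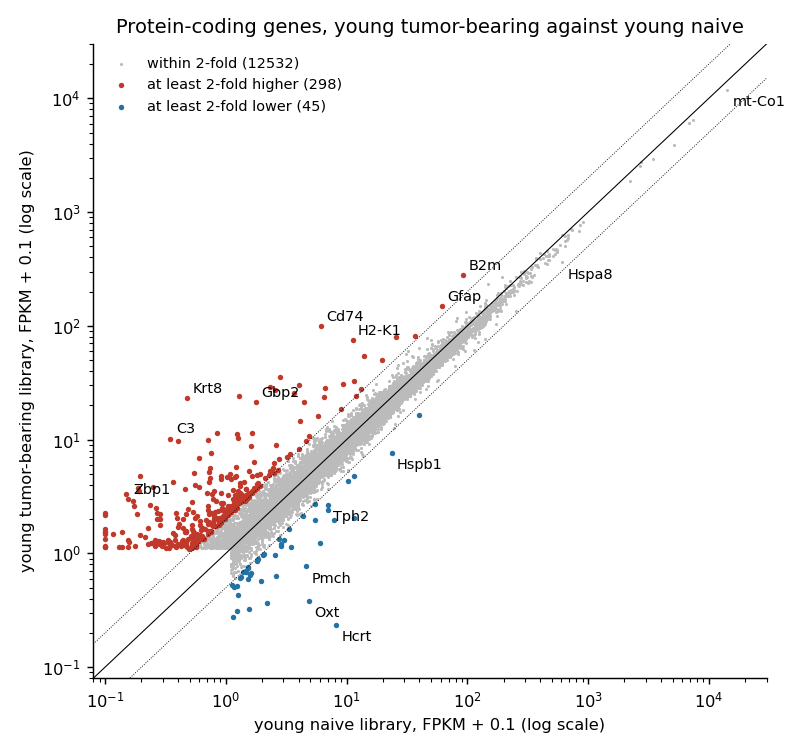
Each point is a protein-coding gene at 1 FPKM or more in either young library, with FPKM + 0.1 in the naive library on the x axis and in the tumor-bearing library on the y axis (log scales). The solid line marks equality and the dotted lines 2-fold. The 298 higher genes lie mostly at low naive levels, and the 45 lower genes are headed by the neuropeptide genes Hcrt, Oxt and Pmch.

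The highest log2 ratios among established genes with 20 or more reads belonged to antigen presentation, complement, interferon-induced and epithelial genes. The top 15 included Nlrc5, Zbp1, Tgtp1, H2-Aa, Cd74, C3, Lcn2 and Krt8. Lgals7, a galectin of stratified epithelium, had 0 naive and 40 tumor-bearing reads, or at least 13.6-fold more against the 3 reads that a count of 0 allows. Car6, a secreted carbonic anhydrase, had 0 and 52 reads (at least 17.7-fold), and Ubd, an interferon-inducible ubiquitin-like modifier, 0 and 27 (at least 9.20-fold). In absolute level the largest gains were those of B2m (92.5 to 277 FPKM), the light chain of MHC class I, and Cd74 (6.04 to 98.5 FPKM), the class II invariant chain. Gfap, the astrocyte intermediate filament, stood at 61.1 and 149 FPKM, and Ifitm3, an antiviral membrane protein, at 13.8 and 54.0 FPKM. Rps27rt and Snhg11 were also among the 10 largest gains, with folds of 1.58 and 1.40. Among the 10 largest losses were mt-Co1 (14188 and 11889 FPKM), the ferritin gene Fth1 (2218 and 1860 FPKM) and Hspa8. The lowest log2 ratios were those of Hcrt, Oxt, Pmch, Ascl5 and Avp, and Srp54b, a near-copy of another gene, was among the lowest 15 as well. Rps27rt is a retrocopy of a ribosomal protein gene whose reads cannot be told from its parent's.

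**Figure D2:**
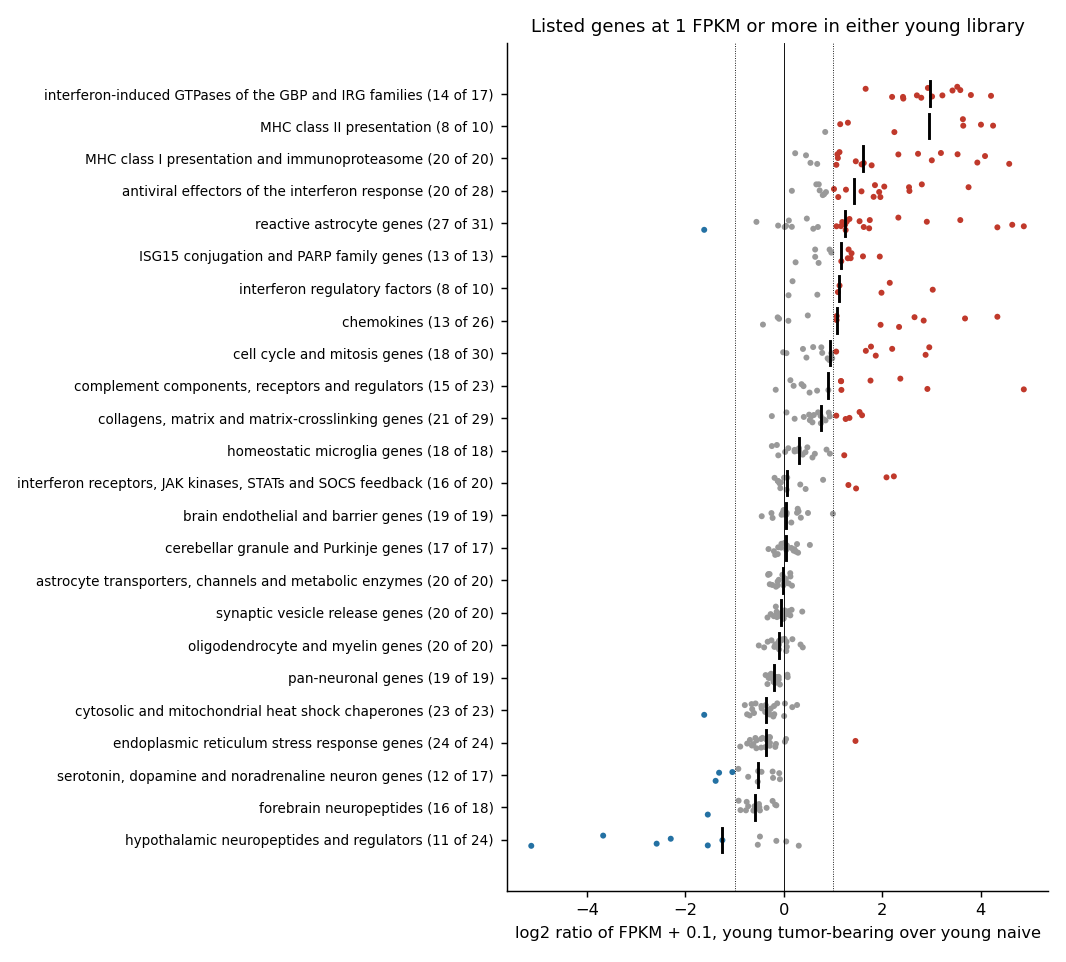
Log2 ratio of FPKM + 0.1, tumor-bearing over naive, for the members of 24 gene lists that reached the floor (number of listed genes in parentheses). Red points are at least 2-fold higher, blue at least 2-fold lower, and the bar is the median. Interferon-induced GTPases and MHC class II genes have the highest medians (2.97 and 2.94) and hypothalamic neuropeptides the lowest (-1.25).

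The interferon pathway differed downstream of its receptors. The ligands were at the detection limit, with 2 and 0 reads for Ifnb1 and 0 and 1 for Ifng. The receptor genes were level between libraries. Ifnar1 was at 8.99 FPKM in naive and 8.45 in tumor-bearing tissue, Ifnar2 at 3.88 and 4.04, Ifngr1 at 6.37 and 6.11, and Ifngr2 at 10.6 and 9.33. The receptor kinases Jak1 (29.4 and 27.1 FPKM) and Jak2 (12.9 and 11.8 FPKM) were slightly lower, by 1.09-fold each. Stat2, a transcription factor of the type I response, was 1.75-fold higher (1.61 to 1.91), and Stat5b was at 11 FPKM in both. Feedback inhibitors were higher: Socs1 at 0.370 and 2.11 FPKM (5.72-fold, 3.61 to 9.45), Usp18 at 0.438 and 2.19 FPKM (4.99-fold, 3.22 to 8.01) and Socs3 at 1.17 and 3.41 FPKM (2.92-fold, 2.21 to 3.90). Over the whole list of receptors, kinases, STATs and SOCS genes 4 of 16 measured members were higher and 0 lower, with a median of 0.06. Of the 14 that naive tissue already expressed, 2 were higher.

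The interferon regulatory factors split by member. Irf1, a transcription factor induced within the response, was 4.23-fold higher (3.35 to 5.38), from 1.11 to 4.68 FPKM. Irf7, the amplifier of type I interferon production, was 4.94-fold higher (3.67 to 6.75), from 0.699 to 3.46 FPKM. Irf5 and Irf8, factors of myeloid cells, were 2.30-fold (1.70 to 3.15) and 2.29-fold higher (1.83 to 2.89). Irf9, the DNA-binding partner of STAT proteins, was 1.63-fold higher (1.40 to 1.88). Irf2 and Irf3 stood near equality, at 1.13-fold (0.998 to 1.29) and 1.07-fold (0.949 to 1.21). Batf2, which the list also holds although it is not an interferon regulatory factor, had 2 naive and 52 tumor-bearing reads. The list as a whole, with Batf2 among the higher ones, had 5 of 8 measured members higher and a median of 1.12. Among those expressed in naive tissue it had 2 of 5 and 0.68.

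The immunity-related GTPases and guanylate-binding proteins, which attack the vacuoles of intracellular pathogens, were the most uniform group. All 14 measured members of 17 listed were at least 2-fold higher, and so were the 5 that naive tissue already expressed, whose median was 3.01. Igtp stood at 2.44 and 27.3 FPKM (11.2-fold, 9.10 to 13.8), Gbp2 at 1.67 and 21.2 FPKM, Irgm2 at 1.55 and 11.3 FPKM, Irgm1 at 1.52 and 8.6 FPKM, and Gbp3 at 1.17 and 10.1 FPKM. Gbp9 had the smallest ratio of the group, 3.40-fold (2.71 to 4.30). Summed over the list the level went from 12.8 to 120 FPKM. Gbp8, Gbp10 and a further family member stayed below the floor, with 0 naive reads each. Tgtp1 and Tgtp2 are close copies, so the split of reads between them is uncertain.

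Promoter sequences are shown for 10 higher genes, 6 of them GTPases, to illustrate a letter pattern that was more frequent in higher genes than in all genes. The pattern searched, on either strand, was the core of the interferon response element, GAAA followed by 2 bases of any kind and GAAA again, in the RefSeq promoter windows of GRCm38.p6, which run from 250 bases before to 50 after the annotated start. Chosen for having a match and 50 or more reads, these are the 10 such genes with the largest log2 ratio. Each stretch runs 5′ to 3′ on the gene's strand around the match nearest the start and ends no later than the start, with the match in capitals.

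Cxcl10: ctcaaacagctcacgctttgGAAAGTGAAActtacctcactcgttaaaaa
Tgtp1: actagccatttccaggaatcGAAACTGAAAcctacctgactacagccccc
Phf11b: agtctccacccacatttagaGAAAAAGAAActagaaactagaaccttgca
Gbp2: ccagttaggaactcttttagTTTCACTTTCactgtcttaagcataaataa
Tgtp2: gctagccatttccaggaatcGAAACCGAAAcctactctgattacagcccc
Igtp: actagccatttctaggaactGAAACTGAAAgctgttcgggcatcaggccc
Gbp3: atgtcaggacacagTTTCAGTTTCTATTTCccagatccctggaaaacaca
Bst2: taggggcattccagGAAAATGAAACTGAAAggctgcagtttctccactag
Irgm2: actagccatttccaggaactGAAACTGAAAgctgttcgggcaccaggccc
Oas1a: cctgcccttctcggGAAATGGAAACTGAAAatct

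These stretches lie at chr5:92349073-92349122 on the minus strand (Cxcl10), chr11:48992294-48992343 minus (Tgtp1), chr14:59341351-59341400 minus (Phf11b), chr3:142620584-142620633 plus (Gbp2) and chr11:49064253-49064302 minus (Tgtp2). The others lie at chr11:58199502-58199551 plus (Igtp), chr3:142559985-142560034 plus (Gbp3), chr8:71537567-71537616 minus (Bst2), chr11:58214893-58214942 plus (Irgm2) and chr5:120907526-120907559 minus (Oas1a). Capitals that begin with TTTC are matches on the opposite strand. In Gbp3, Bst2 and Oas1a 2 matches overlap. Aligned on the match, the Igtp and Irgm2 stretches were identical at 48 of 50 positions, and every other pair among Igtp, Irgm2, Tgtp1 and Tgtp2 at 34 to 38 of 50. These 4 related genes are not independent instances of the pattern.

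Of the 298 higher genes 217 had a promoter in the table, and 43 of those (19.8%) held the pattern. Over all 10100 members with a promoter the share was 3.59%, and over all 27025 RefSeq symbols it was 3.99%. Among genes at least 4-fold higher it was 24.7% (18 of 73), and among the lower genes 0 of 33. Of the higher GTPases 9 of 10 with a promoter held it (Gbp2, Gbp3, Gbp5, Gbp7, Igtp, Irgm1, Irgm2, Tgtp1 and Tgtp2), and of the higher antiviral effectors 8 of 10. The share was 3 of 13 for MHC class I genes and 0 of 4 for the list of interferon regulatory factors and Batf2. Of the higher genes on no list 8 of 106 held it, among them Phf11b, Mndal, Apol9b, Trim12a and Trim12c. With 1 spacer base more between the GAAA blocks the share was 4.61% in the higher genes and 2.53% over all members. The gamma-activated site TTCNNNGAA was found in 12.0% of higher genes against 8.12% of members, and the NF-kappaB pattern, GGG and TTTCC separated by 2 bases, in 5.07% against 1.86%. A match is a string of letters, not a measured binding site.

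**Figure D3:**
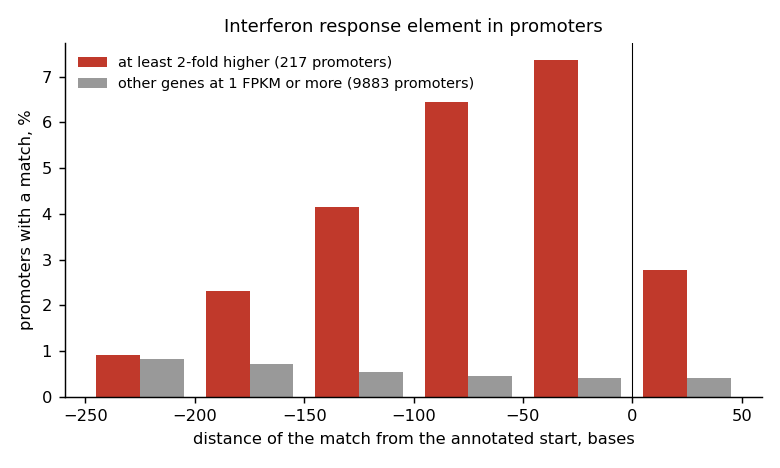
Share of promoters with the interferon response element, in bins of 50 bases by the distance of the match from the annotated start (x axis, bases), for the 217 promoters of higher genes (red) and the 9883 of other genes (grey). In higher genes the share is largest in the 50 bases before the start, at 7.37%, and in other genes it is between 0.405% and 0.820% in every bin.

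The matches also differed in place. Their median position in the higher genes was 61.5 bases before the start, and 75% of 64 matches lay within the 150 bases before it. In the other genes 41.8% of 349 matches did, with a median of 141 bases before the start. The 64 matches lie in 43 genes and the 349 in 320, so genes with several matches weigh more among the higher ones.

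Antiviral effectors were higher in the tumor-bearing library by unequal amounts. Of 20 measured members 13 reached 2-fold higher and 0 lower, and of the 14 already expressed in naive tissue 7 were, with a median of 0.94. Bst2, which tethers virus particles to the cell, was at 3.57 and 25.6 FPKM (7.16-fold, 5.52 to 9.41). Ifit3, which binds foreign RNA, was at 4.04 and 14.6 FPKM (3.61-fold, 2.99 to 4.37). Ifi27l2a had 7 and 104 reads, and Oasl2 0.622 and 4.13 FPKM. Ifit2 (1.6-fold), Samhd1 (1.80-fold) and Eif2ak2 (1.87-fold), the RNA-activated kinase PKR, stayed under 2-fold. Cmpk2 was at 6.14 and 6.89 FPKM. Mx1, Oas1b, Oas3 and Ifi44 stayed below the floor in both libraries, with 6 and 43, 4 and 32, 0 and 67, and 13 and 83 reads.

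The ISG15 system, a ubiquitin-like tag placed on proteins, was represented at each step. The modifier Isg15 was at 2.65 and 6.68 FPKM (2.52-fold, 1.74 to 3.71). Its activating enzyme Uba7 was 3.38-fold higher (2.64 to 4.35), its conjugating enzyme Ube2l6 1.57-fold (1.28 to 1.94), its ligase Herc6 1.62-fold (1.32 to 2.0) and its protease Usp18, given above, 4.99-fold. Of the 13 listed ISG15 and PARP genes 7 were higher and 0 lower, with a median of 1.17. Only 5 of them reached the floor in naive tissue, of which 1, Isg15, was higher.

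Nucleic acid sensors differed among themselves. Zbp1, a sensor of Z-form nucleic acid, was at 0.0554 and 2.90 FPKM, and Ddx58, which encodes RIG-I, was 2.77-fold higher (2.24 to 3.43). Ifih1, which encodes MDA5, was 1.91-fold higher (1.53 to 2.40). Their common adaptor Mavs was 1.38-fold higher (1.15 to 1.67) and Tmem173, which encodes STING, 1.67-fold (1.27 to 2.24). Adar, the RNA-editing enzyme, was level at 23.5 and 23.9 FPKM. Of 12 measured sensors 4 were higher, none of them expressed at 1 FPKM in naive tissue, and the 4 that were expressed there had a median of 0.40. Gsdmd, the pore-forming effector of pyroptosis, was at 0.597 and 3.30 FPKM (5.53-fold, 3.71 to 8.53), Casp1 at 0.947 and 2.07 FPKM and Tlr2 at 0.422 and 1.66 FPKM. Il18 (13.9 and 13 FPKM) and Myd88 (2.28 and 2.21 FPKM) were level.

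Every step of MHC class I presentation held higher genes. Of 20 members 16 reached 2-fold higher and 0 lower, with a median of 1.6, and of the 14 already expressed in naive tissue 10 were, with a median of 1.11. The immunoproteasome subunits Psmb9 (0.361 and 3.61 FPKM) and Psmb8 (0.804 and 4.44 FPKM) had larger folds than Psmb10 (13.2 and 19.2 FPKM, 1.46-fold). The proteasome activator genes Psme1 and Psme2 were 1.17-fold (1.05 to 1.31) and 2.15-fold higher (1.78 to 2.61). The peptide transporter subunits were at 0.50 and 6.84 FPKM for Tap1 and 1.45 and 5.24 FPKM for Tap2. The trimming peptidase Erap1 was 2.23-fold higher (1.88 to 2.65) and the loading chaperone Tapbp 2.11-fold (1.92 to 2.32). Among the heavy chains H2-K1 was at 11.1 and 74.2 FPKM and H2-D1 at 25.6 and 79.2 FPKM, folds of 6.68 and 3.09. The class Ib genes H2-T23 (2.79-fold) and H2-T22 (1.37-fold) were also higher. Several of these genes lie where the recovered reads were not whole numbers, among them H2-K1, Tapbp, Psmb8, Psmb9 and most class II genes, so their intervals rest on rounded reads. For MHC class II, 7 of 8 measured genes were higher and the eighth, the peptide-exchange subunit H2-DMa, was at 5.48 and 9.90 FPKM (1.81-fold). Ciita, the master regulator of class II genes, was at 0.436 and 1.22 FPKM (2.80-fold, 2.18 to 3.64).

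Chemokines that attract T cells and monocytes were higher and those of resting brain were not. Ccl5 was at 0.459 and 3.91 FPKM (8.52-fold, 4.26 to 19.4) and Ccl12 at 1.09 and 4.56 FPKM (4.17-fold, 2.19 to 8.62). Cxcl9 had 1 and 84 reads, Ccl7 had 3 and 27, and Ccl8 had 4 and 24. In contrast Cx3cl1, which neurons display to microglia, was at 180 and 134 FPKM (1.34-fold lower, 1.31 to 1.38), Cxcl12 at 8.08 and 7.55 FPKM and Cxcl14 at 51.5 and 47.2 FPKM. Of 13 measured chemokines 8 were higher and 0 lower, but of the 6 expressed in naive tissue only Ccl12 was, and their median was -0.0019. Of 12 NF-kappaB feedback genes 3 were higher, and 1 of the 9 expressed in naive tissue, Nfkb2 at 1.10 and 3.16 FPKM. Chemokine receptors had 0 of 4 measured members 2-fold apart, and Ccr2, the receptor of blood monocytes, stayed below the floor with 11 and 62 reads.

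In the complement system the early components were higher and the surface regulators were not. The initiating subunits C1qa (32.0 and 60.1 FPKM), C1qb (40.0 and 63.9 FPKM) and C1qc (16.1 and 23.2 FPKM) were 1.88-fold, 1.6-fold and 1.44-fold higher. The proteases C1ra (0.607 and 2.30 FPKM) and C1s1 (0.297 and 1.95 FPKM) were 3.79-fold (2.62 to 5.60) and 6.56-fold higher (4.03 to 11.3). C4b was at 3.92 and 30.3 FPKM, and C3 at 0.247 and 10.1 FPKM. The receptor C3ar1 was 2.49-fold higher (1.75 to 3.59). The C1 inhibitor Serping1 was 2.26-fold higher (1.93 to 2.66), whereas Cd55 (1.26 and 1.11 FPKM) and Cd59a (5.05 and 5.55 FPKM), which protect cell surfaces, were nearly level. In all 7 of 15 measured members were higher and 0 lower, and 3 of the 11 expressed in naive tissue.

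Of 18 homeostatic microglia genes 1 was 2-fold higher, Gpr84, a fatty acid receptor induced by inflammation (0.425 and 1.13 FPKM), and the median was 0.31. Cx3cr1 was at 11.6 and 12.4 FPKM, whereas Trem2 (1.87-fold, 1.55 to 2.27) and Aif1 (1.96-fold, 1.43 to 2.72) were higher. Of 19 measured genes of disease-associated microglia 4 were higher and 0 lower, with a median of 0.35, and 1 of the 16 expressed in naive tissue, Lyz2 (6.47 and 28.2 FPKM). Of 12 measured macrophage genes 5 were higher and 0 lower, with a median of 0.46, and 1 of the 8 expressed in naive tissue, Tgfbi (1.21 and 3.83 FPKM), with a median of 0.29. Among Fc receptors Fcgr4 had 1 and 36 reads, Fcgr2b was 2.52-fold higher (1.93 to 3.32) and Fcgr3 1.37-fold (1.15 to 1.65). Cybb, the catalytic subunit of the phagocyte oxidase, was at 0.160 and 1.20 FPKM (7.48-fold, 4.61 to 12.8). Plac8, of monocytes, had 1 and 33 reads, and Ms4a6c, of macrophages, had 6 and 46. Mrc1, of border macrophages, was at 1.10 and 1.24 FPKM, and Pf4 had 29 and 15 reads. Of 15 pan-leukocyte genes 5 were higher, with a median of 0.69: Cd52 (0.618 and 5.10 FPKM), Cd48, Itgb2, Fyb and Hcls1. Of the 9 expressed in naive tissue 2 were higher, with a median of 0.52. In the T cell list 0 of 4 measured genes were 2-fold apart, with Cd4 at 1.41 and 1.39 FPKM. Most of its 20 listed genes were not measured, so these 4 do not speak for the whole list. Its summed level was 220 and 198 FPKM. Only 3 of its protein-coding genes reached 1 FPKM in naive tissue, so few genes make up that sum and it is not a measure of T cells. In the old pair the sum was 272 and 109 FPKM, although 9 of 13 measured genes were higher there and 1 lower. The number of its genes without any read was 4 and 0 in the young pair. Among 14 listed genes of cytotoxic T and NK cells that number was 7 and 1, and their summed level was 3.71 and 9.15 FPKM. Only 2 of these 14 were measured, and the 1 that was higher was Ccl5, given above among the chemokines. Ccl5 alone made up 0.459 and 3.91 FPKM of the summed level. The summed level of the pan-leukocyte list was 59.9 and 80.2 FPKM. The part that infiltrating cells have in the higher immune genes was not tested.

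Astrocyte genes of the reactive state were higher while those of resting function were level. Of 27 measured reactive genes 17 were higher and 1 lower, with a median of 1.25, and 10 of the 19 expressed in naive tissue were higher. This list shares H2-D1, Psmb8, Gbp2, Cd14, Cxcl10, C3 and Serping1 with the lists of antigen presentation, GTPases, Toll-like receptors, chemokines and complement. Among its other members, Vim was at 19.6 and 49.6 FPKM (2.53-fold, 2.40 to 2.67), Cd109 at 0.362 and 1.45 FPKM (4.01-fold, 2.93 to 5.57), Steap4 had 6 and 85 reads, and Aspg was 2.50-fold higher (1.91 to 3.29). S100a10, Tm4sf1 and Fbln5 were within 1.08-fold. The 20 transporter, channel and metabolic genes of astrocytes had a median of -0.02 and none was 2-fold apart.

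Of 21 measured collagens and matrix genes 5 were at least 2-fold higher and 20 had a ratio above 1, with a median log2 ratio of 0.75. Of the 18 expressed in naive tissue 3 were higher, with a median of 0.65. The vessel basement membrane chains Col4a1 (5.26 and 10.1 FPKM, 1.93-fold) and Col4a2 (7.24 and 11.8 FPKM, 1.63-fold) were higher. The fibroblast collagens Col3a1 (0.663 and 3.25 FPKM, 4.90-fold, 4.06 to 5.96) and Col1a1 (2.22 and 5.19 FPKM, 2.34-fold, 2.04 to 2.69) were higher as well. Other fibroblast markers were near equality, with Dcn at 4.38 and 5.12 FPKM, Lum at 1.36 and 1.55 FPKM and Pdgfra at 6.43 and 6.2 FPKM. The 19 endothelial genes had a median of 0.05 and none was 2-fold apart, and Lrg1, induced in inflamed vessels, was 2.69-fold higher (1.80 to 4.09). Among galectins Lgals3 was at 0.658 and 7.56 FPKM (11.5-fold, 7.62 to 18.1) and Lgals1 at 11.4 and 32.7 FPKM (2.87-fold, 2.45 to 3.38). Lgals3bp, a glycoprotein that binds galectins, was at 4.36 and 21.1 FPKM (4.84-fold, 4.22 to 5.56).

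Of 18 measured cell cycle genes 7 were higher and 0 lower, with a median of 0.94. Of the 7 expressed in naive tissue only Cdc20 was higher (1.20 and 4.04 FPKM, 3.36-fold, 2.40 to 4.78), and their median was 0.46. Ube2c had 9 and 98 reads, Kif20a 22 and 101, and Foxm1, the transcription factor of mitotic genes, 33 and 138. The DNA replication list had 4 of 17 higher, among them Uhrf1, which maintains DNA methylation (0.126 and 1.56 FPKM, 11 and 133 reads), and Mcm6 (1.47 and 3.26 FPKM). Of its 12 members expressed in naive tissue 1 was higher, and their median was 0.22. Pcna, which is also used in DNA repair, was at 17.9 and 16.4 FPKM. Of 20 measured glioma oncogenes and progenitor genes 0 were 2-fold apart, with a median of 0.08.

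Among markers of simple epithelium 4 of 9 measured genes were higher (Krt8, Krt18, Epcam and Lcn2) and 0 lower, and none of the 4 reached 1 FPKM in naive tissue. Lcn2 is not particular to epithelium and is also on the lists of neutrophil and of glucocorticoid-responsive genes. Krt8 was at 0.375 and 23.1 FPKM, its partner Krt18 at 0.817 and 3.27 FPKM (4.0-fold, 2.54 to 6.56), and the adhesion molecule Epcam had 2 and 141 reads. Other markers of this list were at or near 0, with 2 and 0 reads for Krt19, 2 and 0 for Cldn4 and 3 and 1 for Cldn7. Cdh1 was at 0.909 and 1.07 FPKM. The level of Krt8 in the old libraries was 0 and 1.05 FPKM, so the young tumor-bearing library was the high one of the 4.

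On the lower side stood neuropeptides of the hypothalamus and genes of monoamine neurons. Hcrt, which encodes orexin, was at 8.10 and 0.134 FPKM and Oxt at 4.74 and 0.279 FPKM. Pmch, which encodes melanin-concentrating hormone, was at 4.51 and 0.668 FPKM, Avp, which encodes vasopressin, at 5.93 and 1.13 FPKM, Cartpt at 10.2 and 4.23 FPKM and Nts, which encodes neurotensin, at 6.98 and 2.32 FPKM. These 6 were the lower ones of 11 measured members, with 0 higher and a median of -1.25. Hcrt, Oxt and Pmch passed the floor only through the naive library, and over the members at 1 FPKM in both libraries the median was -0.53. Crh (3.96 and 2.80 FPKM), Trh (3.75 and 2.57 FPKM) and Agrp (0.821 and 1.04 FPKM) were within 1.46-fold. Otp, a transcription factor of these neurons, was below the floor with 55 and 8 reads. In the old libraries Hcrt was at 0.256 FPKM in old naive and 0.172 in old tumor-bearing tissue, Oxt at 0.119 and 0.240, and Pmch at 0 and 0.402. Avp was at 0.665 and 3.20 FPKM there, higher with tumor, opposite to the young pair. The young naive library was thus the high one of the 4 for Hcrt, Oxt, Pmch and Avp, and over all 45 lower genes it was the highest for 35. The extent of hypothalamus in each tissue piece and its loss of these transcripts cannot be told apart.

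Of the genes of serotonin, dopamine and noradrenaline neurons all 12 measured members had a ratio below 1, with a median of -0.53, and 3 were at least 2-fold lower. Tph2, which makes serotonin, was at 6.88 and 2.57 FPKM (2.68-fold lower, 2.21 to 3.25). Dbh, which makes noradrenaline, was at 1.49 and 0.539 FPKM (2.77-fold lower, 1.79 to 4.38). The dopamine transporter Slc6a3 was at 4.29 and 2.03 FPKM (2.12-fold lower, 1.73 to 2.61). The vesicular carrier Slc18a2 (5.56 and 2.88 FPKM, 1.93-fold lower) and the serotonin transporter Slc6a4 (1.89 and 1.10 FPKM, 1.71-fold lower) followed. Th, the dopamine synthesis enzyme, was 1.45-fold lower (1.19 to 1.77). The midbrain transcription factor genes En1 (1.44 and 1.35 FPKM) and Nr4a2 (8.65 and 8.11 FPKM) were level. The cell bodies of these neurons lie in midbrain and hindbrain, and in the old libraries Slc6a3 had 0 reads.

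**Figure D4:**
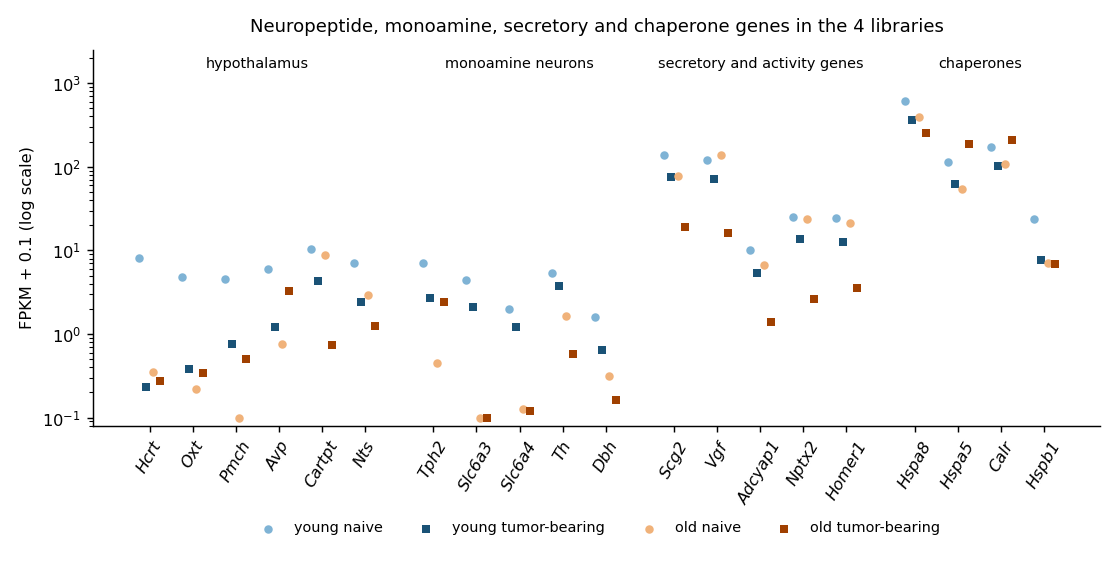
FPKM + 0.1 (log scale) in the 4 libraries for hypothalamic neuropeptides, monoamine genes, secretory or activity-linked genes and chaperones. Circles are naive and squares tumor-bearing libraries, blue young and orange old. Hcrt, Oxt and Pmch are high in the young naive library alone, whereas Scg2, Vgf, Nptx2 and Homer1 are lower in the tumor-bearing library of both ages.

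Of the forebrain neuropeptide list all 16 measured members had a ratio below 1, with a median of -0.59, and 1 was 2-fold lower, Nts. Scg2, a granin of dense-core vesicles, was at 140 and 76.0 FPKM (1.84-fold lower, 1.77 to 1.92). Vgf, a secreted neuronal peptide precursor, was at 122 and 72.0 FPKM (1.69-fold lower, 1.63 to 1.75). Adcyap1 was at 10.1 and 5.32 FPKM, Penk at 124 and 88.0 FPKM and Tac1 at 10.4 and 6.24 FPKM. Sst (1.17-fold) and Npy (1.11-fold) were lower by less. Of 25 activity-induced genes 0 were 2-fold apart and the median was -0.04, with members on both sides. The scaffold gene Homer1 was at 24.4 and 12.6 FPKM (1.94-fold lower, 1.86 to 2.03), Nptx2 at 25.1 and 13.6 FPKM (1.84-fold lower, 1.68 to 2.03) and Egr3 at 45.2 and 27.6 FPKM (1.64-fold lower, 1.55 to 1.72). Npas4 was at 5.49 and 8.67 FPKM (1.58-fold higher, 1.40 to 1.78), and Egr1 (52.0 and 54.5 FPKM) and Arc (32.5 and 30.4 FPKM) were level.

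Few protein folding genes were 2-fold apart, 1 lower of 23 cytosolic and mitochondrial chaperones, and 1 higher and 0 lower of 24 endoplasmic reticulum genes, but most had ratios below 1. Hspa8, the constitutive HSC70 chaperone, was at 605 and 361 FPKM (1.68-fold lower, 1.65 to 1.70), Hsph1 at 57.3 and 33.0 FPKM and Cryab at 96.2 and 59.4 FPKM. Hspb1, a small heat shock protein, was at 23.4 and 7.57 FPKM and was the 1 of 23 members that was 2-fold lower. Among cytosolic and mitochondrial chaperones 19 of 23 had a ratio below 1 and the median was -0.37. Of 24 endoplasmic reticulum genes 21 had a ratio below 1, again with a median of -0.37. Hspa5, which encodes BiP, was at 114 and 61.5 FPKM (1.85-fold lower, 1.79 to 1.91), Calr at 173 and 103 FPKM (1.68-fold lower, 1.62 to 1.73) and Pdia6 at 36.4 and 22.6 FPKM (1.61-fold lower, 1.52 to 1.72). Trib3, a target of the ATF4 branch, was 2.97-fold higher (1.98 to 4.56), Ddit3 was level at 12.7 and 12.9 FPKM, and Asns was 1.30-fold lower (1.22 to 1.38). The background also depended on level, with a median log2 ratio of 0.09 for genes of 1 to 3 FPKM in naive tissue and -0.19 for those of 100 FPKM and above.

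In other groups few or no genes were 2-fold apart. No gene was 2-fold apart among 19 pan-neuronal genes (median -0.19), 20 synaptic release genes (-0.05), 29 glutamate and GABA receptor subunits (-0.22), 20 oligodendrocyte genes (-0.09), 16 cortical layer genes (-0.05), 17 cerebellar genes (0.05) and 12 choroid plexus genes (0.12). The summed level of the cerebellar list was 687 and 681 FPKM in the young libraries, against 103 and 33.3 FPKM in the old ones. Nuclear respiratory chain genes had 23 of 24 ratios below 1 and a median of -0.19. All genes of 100 FPKM or more in naive tissue also had a median of -0.19, with an upper quartile of -0.08, so most ratios at that level were below 1. Of 13 mitochondrially encoded genes 11 had a ratio below 1, with a median of -0.23, and 1 was 2-fold lower, mt-Atp8 with 11 and 5 reads. Clock genes had a median of 0.11, with Dbp at 16.6 and 27.2 FPKM (1.64-fold higher) and Per3 at 5.08 and 7.56 FPKM (1.49-fold), against Clock at 11.6 and 8.34 FPKM (1.39-fold lower). The time of day of dissection is not stated.

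Some higher genes were neighbours in the genome. With starts within 200 kb of each other, 11 runs held 3 or more higher genes, some with other measured genes between them. The longest, chr17:33915899-34316674 in mm10, spanned the MHC and held 11 higher genes among 23 measured ones: Tapbp, H2-K1, Col11a2, H2-DMb1, Psmb9, Tap1, Psmb8, Tap2, H2-Ab1, H2-Aa and H2-Eb1. Chromosome 17 had the largest share of higher genes among the numbered chromosomes, 5.23% of its 612 measured genes. Other runs were Gbp5, Gbp7, Gbp3 and Gbp2 at chr3:142493978-142638008, Irgm1, Tgtp1, Tgtp2 and Ifi47 at chr11:48861968-49096974, Ifit3, Ifit3b and Ifit1 at chr19:34583531-34650009, and Ccl7, Ccl12 and Ccl8 at chr11:82045712-82116799. Neighbours in such clusters are gene copies in part and share sequence.

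The old pair shares no library with the young pair, and its values were set beside those of the young genes. Among the 13582 protein-coding genes measured in the old pair, 19.3% stood 2-fold or more above the naive library and 29.7% below it. These shares rest on the FPKM scale as deposited. Scaling by median ratios, fragments in genes or FPKM totals would raise the old log2 ratios by about 0.38 to 0.58. In the young pair the same scalings move them by -0.03 to 0.06. All old values below carry this uncertainty. Of the 298 genes higher in the young pair 242 (81.2%) were also at least 2-fold higher in the old pair and 17 lower. These 242 made up 9.21% of the 2627 genes higher there. Of the 298 genes 277 were measured in both pairs. Their median log2 ratio was 1.51 in the young and 4.02 in the old pair, and for 229 of them the old ratio was the larger. The highest of the 4 values was that of the old tumor-bearing library for 238 genes and of the young tumor-bearing library for 51. Krt8 and Epcam were among the latter. Of the 45 lower genes 30 were measured in the old pair, and 13 were lower and 7 higher there. The difference between the pairs was not tested.

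**Figure D5:**
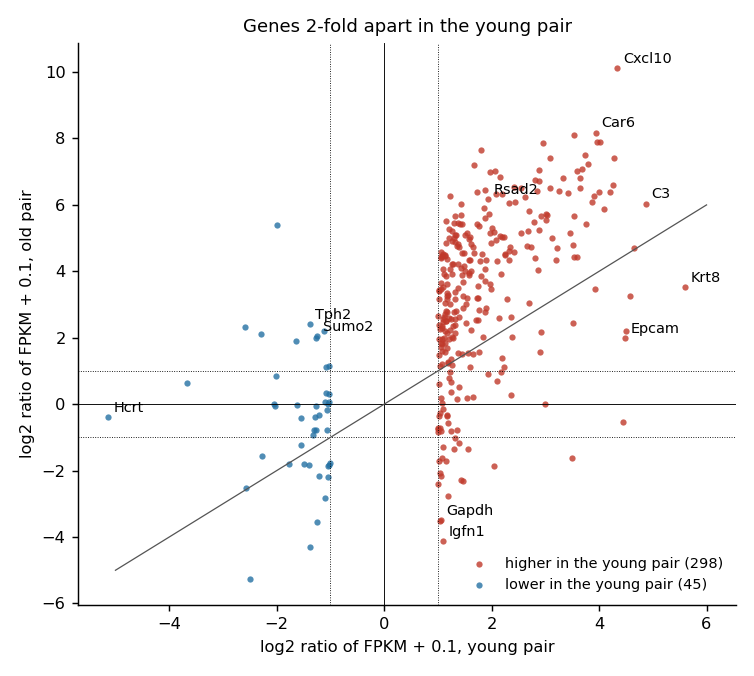
Log2 ratio of FPKM + 0.1 in the young pair (x axis) and the old pair (y axis) for the 298 higher and 45 lower genes of the young pair. The diagonal marks equal ratios and the dotted lines 2-fold. Most of the 298 higher genes lie above the diagonal, and the 45 lower genes are spread over both directions in the old pair.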

How the data were processed

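Poly-A RNA was sequenced as paired-end Illumina libraries, 1 per group (young naive, young tumor-bearing, old naive, old tumor-bearing). The authors deposited FPKM per gene, per the file headers. The submitters' processing notes name HISAT2 and mm10. How fragments were counted, on which annotation, with what filter, and whether mice were pooled is not given in the sources used here. Protocols in the labels describe a directional and a non-directional preparation without saying which was used, so overlapping antisense genes cannot be told apart.

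GENCODE M21 supplied symbols, gene types, positions and exon lengths through Ensembl identifiers and named 54495 of 54532 genes. FPKM times exon length came in whole steps of 1 fragment for 97.2% of the 32846 genes above 0 (within 0.03 reads or 2e-05 of the value). This gave each library's divisor and the reads of each gene, and 12232 of the 12875 genes were whole in both young libraries. The calculation was tested on simulated data. Ratios were compared on log2(FPKM + 0.1), a scale that understates low genes, with a threshold of 2-fold. Folds are ratios of FPKM, with exact conditional binomial 95% intervals of reads. Without molecular identifiers PCR copies count as separate reads, so these intervals cover counting error only. A fold against 0 reads is a lower bound from 3 reads per library. For a gene of 1 kb, 3 reads equalled 0.147 (naive) and 0.150 (tumor-bearing) FPKM.

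The genes compared and 73 lists of 1267 genes (1266 matched) were chosen with earlier results of these data known. Named genes were the 15 highest and 15 lowest log2 ratios among established symbols with at least 20 reads in the higher library, the 10 largest gains and losses in FPKM, and list members. Some genes that this rule names are not reported here. Promoters came from RefSeq. Alternatives changed the pseudocount, floor, scaling, treatment of 0 reads, gene types and motif. Python 3.11.15, numpy 2.4.6, pandas 2.3.3, scipy 1.17.1 and matplotlib 3.10.9 were used.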

Additional observations from a re-analysis of the deposited data

Results flagged for a closer look

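Of the genes at least 2-fold apart in the young pair, 24 were at least 2-fold apart the opposite way in the old pair. These were 17 of the 298 higher genes (5.70%) and 7 of the 45 lower ones (15.6%), and among all genes of the old pair 29.7% were lower and 19.3% higher. Those background shares count only genes measured in the old pair, as 277 of the 298 and 30 of the 45 were. On that base the 7 of 30 lower genes are near the 19.3%. Of these, 13 had an established symbol and 50 or more reads in the higher library of each pair, and 12 of them are given here. The difference between the pairs was not tested, since each group was 1 library.

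Of the 12, 8 were higher with tumor in the young pair and lower in the old one. The log2 ratios, young then old, were 1.32 and -1.02 for Cfap65, a gene of motile cilia, and 1.19 and -2.76 for the phospholipase gene Pla2g4e. They were 1.15 and -1.70 for the metalloprotease gene Adam33, 1.09 and -4.13 for Igfn1, and 1.09 and -1.62 for Celsr1, a planar polarity cadherin. They were 1.06 and -3.49 for Gapdh, 1.05 and -2.15 for Pip5kl1, and 1.02 and -1.71 for Slc26a8. Gapdh has many near-identical pseudogene copies, so its reads are uncertain. Other scalings would raise the old log2 ratios by about 0.38 to 0.58, and Cfap65 lies closer than that to the 2-fold line.

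The other 4 genes were lower with tumor in the young pair and higher in the old one. The log2 ratios were -1.39 and 2.42 for Tph2, the serotonin synthesis enzyme, -1.02 and 1.14 for Cenps, a centromere protein, -1.24 and 2.05 for Sumo2, and -1.26 and 2.0 for Nutf2-ps1. Sumo2 and Nutf2-ps1 have near-identical copies and are uncertain too. Tph2 stood at 6.88 FPKM in young naive, 2.57 in young tumor-bearing, 0.355 in old naive and 2.33 in old tumor-bearing tissue, lowest in old naive tissue.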

How the results depend on the processing

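The counts of protein-coding genes at least 2-fold higher (298) and of protein-coding genes at least 2-fold lower (45) depended on how low genes were treated. They were 193 and 23 with a pseudocount of 0.5, 119 and 17 with 1, 482 and 82 with a floor of 0.5 FPKM, 53 and 12 with a floor of 5, and 97 and 18 with 1 FPKM in both libraries. Without a floor they were 918 and 223, and over all gene types 783 and 286. They stayed within 1.5 times under other scalings, at 280 and 50 with median-of-ratios factors and 341 and 37 with fragments in genes. The share also higher in the old pair was 92.5% at a floor of 5, and the motif share 4.61% with 1 more spacer base. The median log2 ratio of the Toll-like receptor and inflammasome genes was -0.091 at a floor of 5 and -0.040 with 1 FPKM in both, against 1.06. That of chemokines was -0.11 and -0.0019, against 1.07. At a floor of 5 the medians of DNA replication genes (0.41) and, with 1 FPKM in both, of neutrophil genes (0.30) also changed sign, to -0.12 and -0.22. At a floor of 5 those of interferon regulatory factors, cell cycle and mitosis genes and nucleic acid sensors were 0.096, 0.054 and 0.028, against 1.12, 0.94 and 0.78. Each of these floors moved 12 list medians outside the range from the median lower to the median upper interval limit of their members. Fewer genes remain under these floors. The median of hypothalamic neuropeptides was -0.53 with 1 FPKM in both, against -1.25. No paired analysis was possible because each group was 1 library, and for the same reason no replicate could be left out. Depth limits genes near 0: 3 reads of a 1 kb gene were 0.147 FPKM in young naive tissue.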

Other observations

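Genes of cartilage-type matrix, singled out after their values were seen, were higher in the tumor-bearing library. Col9a1 was at 0.164 and 2.41 FPKM (14.7-fold, 8.98 to 25.6), Col11a1 at 0.817 and 4.70 FPKM (5.75-fold, 4.97 to 6.68) and Col2a1 at 0.201 and 1.16 FPKM (5.76-fold, 4.06 to 8.36). Cnmd, which encodes chondromodulin, was at 0.982 and 4.86 FPKM (4.95-fold, 3.46 to 7.25). In the old pair Col2a1 was at 0.505 and 78.9 FPKM and Col9a1 at 0.151 and 21.3 FPKM, whereas Cnmd was highest in the young tumor-bearing library of the 4.

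Some enzymes of activated phagocytes, also chosen after their values were seen, appeared from near 0. Acod1, which makes itaconate, had 0 and 65 reads, at least 22.2-fold higher against 3 reads. Chit1, a macrophage chitinase, had 5 and 92 reads (18.8-fold, 7.78 to 59.3). In the old pair Acod1 was at 0 and 17.9 FPKM, and Chit1 at 0.352 and 0.0474 FPKM.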
